A study of Schmidtea polychroa with 132 samples.

Results

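The transcripts described here were at a steady level in *Schmidtea polychroa* embryos from stage 4 to stage 8 and were low in the median embryo of stages 1 to 3 and in yolk. They numbered 200 of the 15121 transcript models used. For each model the level was taken as CPM, its counts scaled to a common library total of all transcript counts, and the median over the libraries of each group was formed. A transcript qualified when its lowest median over stages 4 to 8 was at least 30 CPM and its highest was at most 3 times that value, which 1905 transcripts met. These were ranked by the ratio of the lowest median over stages 4 to 8 to the highest median over stages 1 to 3 and yolk, with 1 CPM added to each, and the first 200 were taken. The step between stages 3 and 4 and the flatness from stage 4 to stage 8 therefore chose the members and are given as descriptions, without a test.

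*S. polychroa* is a freshwater planarian, a flatworm. Planarian eggs hold little yolk of their own, and several embryos develop inside a capsule packed with separate yolk cells supplied by the parent. Early blastomeres lie scattered among the yolk cells. The embryo then forms a transient pharynx with which it swallows yolk, and the definitive organs form later around the ingested material.

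Polyadenylated RNA was measured by CEL-Seq, a method that barcodes and linearly amplifies the 3′ ends of transcripts, with synthetic spike-in RNAs added. Capsules came from a laboratory population, were held at 20 °C, and were opened at times spread evenly across 15 days of development. The libraries comprised 4 yolk samples and single embryos of stage 1 (6 embryos), stage 2 (29), stage 3 (22), stage 4 (10), stage 5 (13), stage 6 (16), stage 7 (16) and stage 8 (15), and 1 further library was labelled protist. No treatment or genotype distinguished the groups, and no parent or capsule was given for an embryo.

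The libraries held between 8530 and 1620829 transcript counts, with a median of 336516.5. The proportions of the spike-ins placed them in 4 sets, called A to D here, which are read from the data and have no label. Set C held all embryos of stages 4 to 6, set D all of stage 7 and 14 of 15 of stage 8, and stages 1 to 3 and yolk were divided between the remaining sets. Stage 4 follows stage 3, and stage 7 follows stage 6, across a change of set, so stage and set cannot be told apart at these steps. The deposited table gives numbers but no gene names for the transcript models, so neither functions nor cell type markers could be attached to any member. In whole embryos, fewer cells of a type and less RNA per cell cannot be told apart.

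Among the 200 members the lowest median over stages 4 to 8 lay between 30.1 and 1202 CPM, with a median of 53.9 CPM over members. It was under 40 CPM for 63 members, at least 100 CPM for 45 and at least 500 CPM for 7. The highest median over stages 1 to 3 and yolk was 0 for 18 members, with a median of 4.97 CPM and a highest value of 169 CPM. The ratio that ranked them ran from 98.8 down to 5.51. The last 2 inside the list were FW_v1_tr_04067, with 30.8 CPM against 4.77 CPM and a ratio of 5.513, and FW_v1_tr_06009, with 159 CPM against 28.1 CPM and a ratio of 5.508. The first 2 outside were FW_v1_tr_00304, with 266 CPM against 47.4 CPM and a ratio of 5.506, and FW_v1_tr_06493, with 427 CPM against 76.9 CPM and a ratio of 5.501. The end of the list thus falls inside a continuous run of values.

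FW_v1_tr_00242 ranked first and FW_v1_tr_04073 second. FW_v1_tr_00242 had a median of 0 CPM in yolk and in each of stages 1 to 3, with highest values of 1.91 CPM in yolk, 5.82 CPM in stage 1, 129 CPM in stage 2 and 59.1 CPM in stage 3. Its lowest, median and highest levels were 0, 100 and 344 CPM in stage 4, 11.6, 163 and 405 CPM in stage 5, 10.2, 124 and 427 CPM in stage 6, 48.5, 97.8 and 163 CPM in stage 7, and 0, 100 and 196 CPM in stage 8. Of the 70 embryos of stages 4 to 8, 23 exceeded every library of stages 1 to 3 and yolk for this transcript, so the groups overlapped even for the member with the widest gap between medians. The 129 CPM came from stage 2 replicate 1, where 1 count was worth 43.1 CPM.

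FW_v1_tr_04073 was listed at 0 in all 4 yolk samples, and its median was 0 CPM in stages 1, 2 and 3, with highest values of 6.37, 50.1 and 106 CPM. Its median was 164 CPM in stage 4, 143 CPM in stage 5, 101 CPM in stage 6, 66.8 CPM in stage 7 and 80.6 CPM in stage 8. The level was thus highest at the first of these stages, within the 3-fold range that the rule set. In stage 6 it was at 0 in 3 of 16 embryos.

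FW_v1_tr_06075 and FW_v1_tr_11783 had the highest levels of the 200. FW_v1_tr_06075 measured 130, 97.3, 46.6 and 99.1 CPM in the 4 yolk samples and had medians of 169, 49.5 and 101 CPM in stages 1, 2 and 3. Its lowest, median and highest levels were 340, 1087 and 1810 CPM in stage 4, 843, 2170 and 3001 CPM in stage 5, 479, 2024 and 3015 CPM in stage 6, 1127, 1905 and 2350 CPM in stage 7, and 451, 1677 and 2532 CPM in stage 8. All but 3 of the 70 embryos of stages 4 to 8 lay above the highest earlier library, which held 458 CPM in stage 3 replicate 3.

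FW_v1_tr_11783 measured 13.0, 327, 64.1 and 80.1 CPM in the yolk samples and had medians of 99.0, 80.2 and 70.7 CPM in stages 1, 2 and 3. Its medians from stage 4 to stage 8 were 1202, 1570, 1363, 2119 and 1803 CPM. Here 55 of 70 embryos of stages 4 to 8 exceeded every earlier library, the highest of which was stage 3 replicate 9 with 1213 CPM. That single stage 3 embryo thus reached the median level of stage 4.

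**Figure D1:**
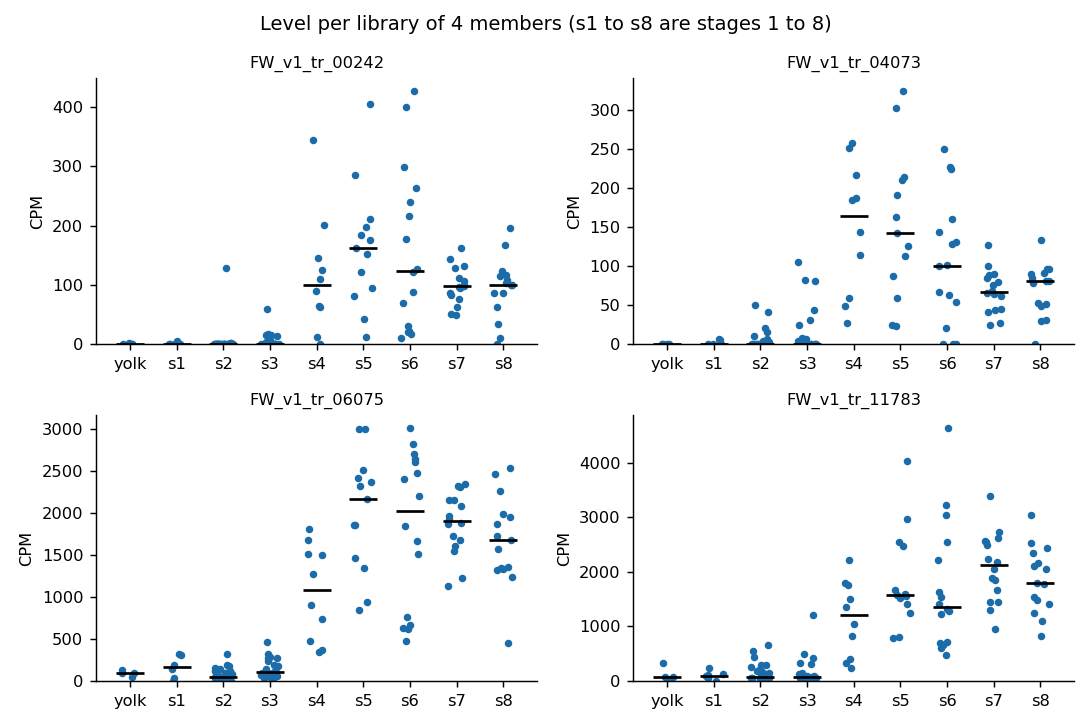
Level in CPM (linear axis) of the 2 members ranked first (upper row) and the 2 with the highest level (lower row) in each library, by group from yolk to stage 8; points are libraries and bars are group medians. The stage 4 to 8 medians of FW_v1_tr_06075 lie between 1087 and 2170 CPM, while single stage 2 or stage 3 embryos reach into the later range for all 4 transcripts.

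No member had every library of stages 4 to 8 above every library of stages 1 to 3 and yolk (0 of 200). The shallow early libraries largely set this number. In stage 1 replicate 3, for example, 1 count was worth 117 CPM, while the members' lowest late median was typically 53.9 CPM. A single early read or a late value of 0 can thus make an overlap. The same count over all transcripts was not made, so nothing particular to the members is read from it. A median of 0 CPM was found for 37 members in yolk, for 116 in stage 1, for 146 in stage 2 and for 50 in stage 3. With the counts of a group pooled, however, all 200 had counts in stage 2 and in stage 3, and only 9 had none in yolk and 8 none in stage 1. For a member with no count, the 3 counts that a count of 0 allows correspond to 2.43 CPM over the pooled yolk samples and 3.88 CPM over the pooled stage 1 embryos, and these limits cover counting error only. The pooled level, as a median over the 200 members, was 4.87 CPM in yolk, 6.47 CPM in stage 1, 11.6 CPM in stage 2, 20.6 CPM in stage 3, 87.1 CPM in stage 4, 93.2 CPM in stage 5, 92.1 CPM in stage 6, 82.4 CPM in stage 7 and 75.8 CPM in stage 8. The name "on from stage 4" thus describes the median embryo. Reads of every member were present before stage 4. The pooled levels weight each library by its counts, and stage 3 replicate 15 alone held 1031677 of the 5982632 pooled stage 3 counts. Their rise from stage 1 to stage 3 was not seen in the median share per library, which was 0.434%, 0.340% and 0.323% in these stages.

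**Figure D2:**
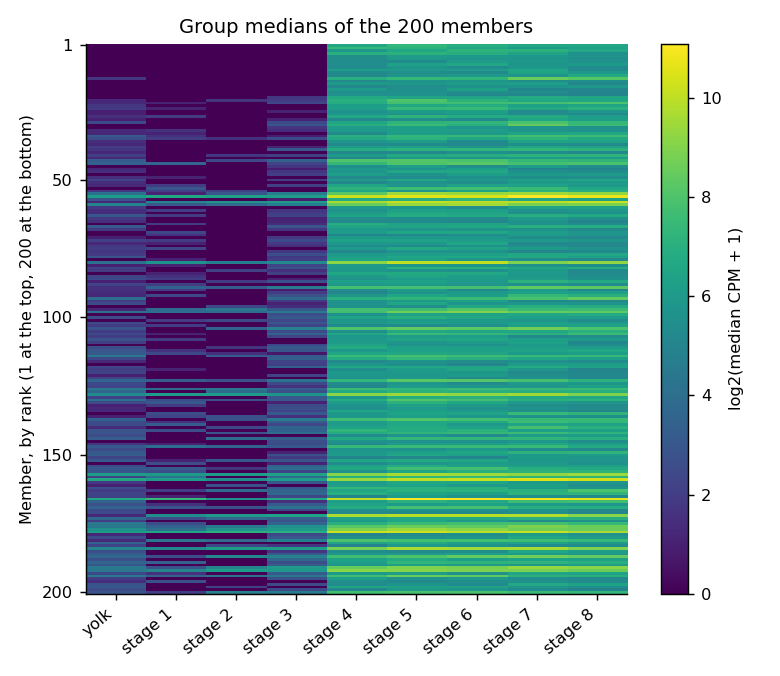
Group medians of the 200 members as log2(median CPM + 1), with members in rank order from top to bottom and groups from yolk to stage 8. The dark block on the left holds the medians of 0, which number 146 in stage 2 and 50 in stage 3, and the step at stage 4 is the one the rule selected. The early libraries were shallower, so a median of 0 can stand for a low level.

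Summed over the 200, the members took a median of 0.182% of the transcript counts in yolk, with a lowest value of 0.111% and a highest of 0.206%. The lowest, median and highest shares were 0.112%, 0.434% and 0.997% in stage 1, 0.148%, 0.340% and 1.49% in stage 2, and 0.176%, 0.323% and 1.64% in stage 3. They were 0.783%, 2.78% and 3.70% in stage 4, and 1.95%, 3.72% and 4.49% in stage 5, 1.67%, 3.66% and 4.45% in stage 6, 2.72%, 3.33% and 3.76% in stage 7, and 2.00%, 2.96% and 3.28% in stage 8. The shares of stages 3 and 4 overlapped, while every embryo of stages 5 to 8 lay above every embryo of stages 1 to 3. The single protist library held 23 counts of members among 173054, spread over 21 of the 200, and none of the members was among the 115 transcripts defined as high in that library. The 2 members highest there, FW_v1_tr_05487 and FW_v1_tr_06075, each measured 11.6 CPM. FW_v1_tr_05487 also had the most extreme single early value among the named members, 3168 CPM in stage 1 replicate 2, a library of 12942 counts, while its stage 1 median was 0 CPM. In that library 1 count was worth 77.3 CPM, and all members together had 129 counts. The highest stage 1 share, 0.997%, came from this library and thus rests partly on this 1 transcript.

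**Figure D3:**
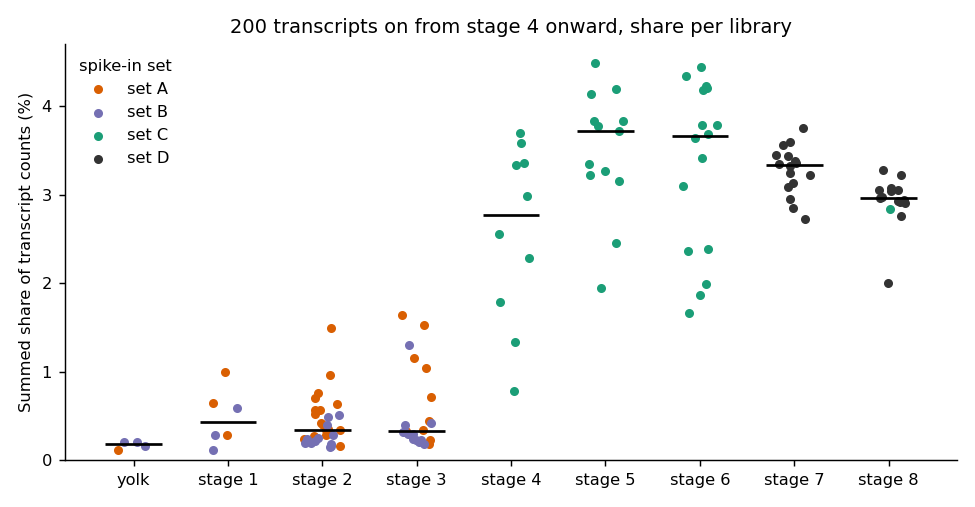
Summed share of transcript counts taken by the 200 members (%, axis from 0), 1 point per library, coloured by the spike-in set A to D, with bars at the group medians. For stage 3 the median of set A is 0.571% and that of set B 0.292%, and 6 stage 3 embryos between 0.707% and 1.64% stand above the other 16.

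The stage 3 embryos covered 2 separate ranges of this share. In 6 of the 22 the members took 0.707% to 1.64% of counts, and in the other 16 they took 0.176% to 0.435%. The 6 were replicates 9, 4, 15, 6, 7 and 8, in descending order of share, and 5 of them belonged to set A. Replicate 9 had 126 of the 200 members at or above 50% of their own lowest median of stages 4 to 8, replicate 15 had 125, and replicate 8 had 62, whereas the other 16 embryos had between 5 and 30. In set A the split coincided with depth: the 5 embryos held 124391 to 320672 counts, and the remaining stage 3 embryos 14491 to 80880. In those remaining libraries 1 count was worth 12.4 to 69.0 CPM, which limits the number of members seen at 50%. The part of depth was not tested. These 6 embryos are described singly and were compared with no other group, since they were picked out by the value itself.

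In stage 3, transcripts typical of yolk took a small share of counts where the members took a large one. A set of 398 transcripts, with a yolk median of at least 100 CPM and at least 10 times the higher median of stages 7 and 8, took 5.58% to 11.8% of counts in the 6 stage 3 embryos and 27.2% to 40.9% in the other 16. In stage 2 the embryo with the largest share of members, replicate 5 with 1.49%, also had the lowest share of yolk-typical transcripts, 3.77%, and 102 members at or above 50% of their later lowest median. A low yolk-typical share did not always go with a large share of members there. Of 7 stage 2 embryos with a yolk-typical share under 15%, 2 had a member share over 0.7%. Stage 2 replicate 26, for example, had 12.6% and 0.397%. The yolk-typical share had a median of 49.1% in yolk and, for stages 1 to 8 in order, medians of 37.3%, 27.4%, 32.1%, 4.34%, 4.07%, 3.65%, 0.529% and 0.454%. The 398 were picked for a high level in yolk and a low one in stages 7 and 8, and the members for a low yolk median. Opposed shares, and the fall from yolk to stages 7 and 8, are therefore partly set by the definitions. Both shares are taken of the same counts, and the part of yolk RNA in the step at stage 4 was not tested.

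The 2 stage 3 libraries with the most counts, both in set B, differed in the same way. Replicate 15 held 1031677 counts with 5.64% of them from yolk-typical transcripts, and replicate 22 held 806011 counts with 28.9% from these transcripts. In replicate 15 all 200 members were detected and 5 lay under 10% of their lowest median of stages 4 to 8, while in replicate 22 that number was 87, with 77 members at 3 counts or fewer. FW_v1_tr_04073 had 80.5 CPM in replicate 15 and 31.0 CPM in replicate 22, FW_v1_tr_06075 had 182 and 31.0 CPM, and FW_v1_tr_11783 had 307 and 58.3 CPM. FW_v1_tr_00242 had 15.5 CPM in replicate 15 and was at 0 in replicate 22, where 3 counts correspond to 3.72 CPM. Over the 17 stage 3 libraries with at least 100000 counts, 195 members reached 50% of their later lowest median in at least 1 embryo and 79 in at least 5, and the highest number of embryos for any member was 9.

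**Figure D4:**
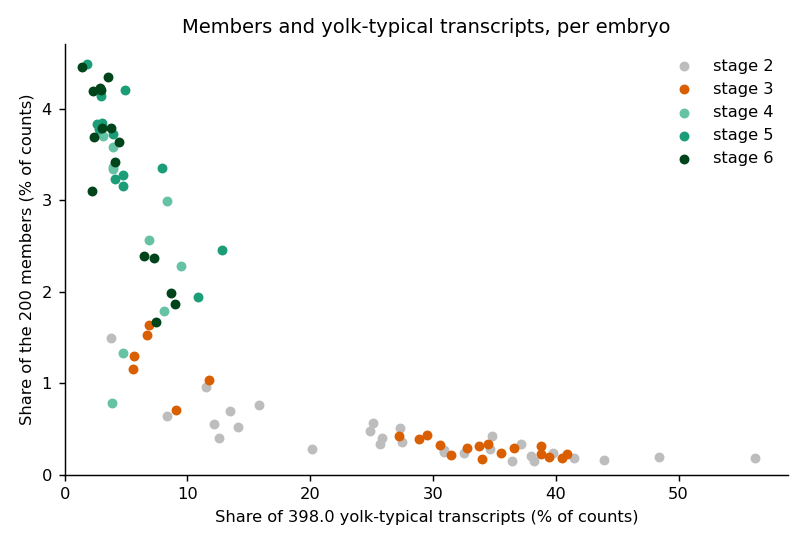
Share of counts taken by the 200 members (vertical axis, %) against the share taken by the 398 yolk-typical transcripts (horizontal axis, %) in embryos of stages 2 to 6, 1 point per embryo. The 6 stage 3 embryos with a yolk-typical share between 5.58% and 11.8% lie apart from the other 16, which lie between 27.2% and 40.9%; both axes are shares of the same counts.

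Within stage 4 the share of members was lowest in replicate 3, at 0.783%, and in replicate 10, at 1.33%. In these 2 libraries the transcripts that are high in the protist library took 55.9% and 31.5% of counts. With those transcripts left out of the total the shares became 1.78% and 1.94%, against 1.85% in replicate 5, the lowest of the other stage 4 embryos on either scale.

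From stage 4 to stage 8 the members kept no common order. The median over members of the group medians was 66.5 CPM in stage 4, 84.6 CPM in stage 5, 80.7 CPM in stage 6, 78.4 CPM in stage 7 and 72.9 CPM in stage 8. The highest median fell in stage 4 for 19 members, in stage 5 for 58, in stage 6 for 42, in stage 7 for 58 and in stage 8 for 23. The lowest fell in stage 4 for 79 and in stage 8 for 78, so most members were lowest at one or the other end of the range.

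The ratio of highest to lowest median had a median of 1.85 over the members and was at most 2 for 113 of them and above 2.5 for 28. FW_v1_tr_04739 was the flattest, with medians of 185, 160, 192, 179 and 187 CPM from stage 4 to stage 8 and a ratio of 1.195. FW_v1_tr_01621 was next, with 36.7, 38.4, 36.5, 44.4 and 36.1 CPM and a ratio of 1.23. Flat medians did not mean equal embryos: single embryos of stages 4 to 8 ranged from 37.4 to 401 CPM for FW_v1_tr_04739 and from 0 to 86.6 CPM for FW_v1_tr_01621.

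The least flat members differed in direction. FW_v1_tr_02282 had medians of 36.2, 53.1, 59.1, 53.6 and 108 CPM from stage 4 to stage 8, a ratio of 2.99. FW_v1_tr_09742 had 122, 139, 118, 83.4 and 46.7 CPM, a ratio of 2.97. The first was thus highest at stage 8 and the second lowest there.

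Members also varied widely between embryos of one stage. The SD of log2(CPM + 1) over the embryos of a stage, as a median over stages 4 to 8, was smallest for FW_v1_tr_06486 at 0.25 and next for FW_v1_tr_11258 at 0.39. FW_v1_tr_06486 had lowest, median and highest levels of 371, 1209 and 1430 CPM in stage 4, 900, 1244 and 1600 CPM in stage 5, 757, 998 and 1234 CPM in stage 6, 816, 1131 and 1351 CPM in stage 7, and 390, 818 and 1045 CPM in stage 8. It was also the member detected in the most earlier libraries, with counts in 59 of 61, and 34 of the 70 embryos of stages 4 to 8 exceeded every one of those.

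The largest SDs belonged to FW_v1_tr_03497 at 2.11 and FW_v1_tr_08994 at 2.03. FW_v1_tr_03497 had lowest, median and highest levels of 0, 36.0 and 355 CPM in stage 4, 18.5, 52.2 and 171 CPM in stage 5, 0, 58.0 and 213 CPM in stage 6, 16.9, 45.4 and 95.9 CPM in stage 7, and 0, 44.5 and 76.3 CPM in stage 8. The 2 most variable members had lowest medians of 36.0 and 36.2 CPM, close to the 30 CPM limit, where few counts stand behind a value. The 2 least variable had lowest medians of 818 and 383 CPM. Over all members the median SD, for stages 4 to 8 in order, was 1.46, 0.79, 1.27, 0.58 and 0.82. The 1705 other transcripts within the same limits of level and flatness had 1.12, 0.70, 0.94, 0.51 and 0.65, at somewhat higher median levels of 91.7 to 109 CPM.

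The rule used group medians only, so it did not directly fix how a member followed the differences between embryos of one stage. The measure was log2 of the transcript counts per spike-in count of a library, which follows how much polyadenylated RNA the sample gave. Yolk-typical transcripts and those high in the protist library were counted in that ratio, so it does not stand for the embryo's own RNA alone. edgeR's quasi-likelihood test gave each transcript a slope, the change of its log2 relative level per doubling of that ratio, with stage as a factor. Across the 39 embryos of stages 4 to 6, which share set C, 49 of 200 members had a positive slope at a Benjamini-Hochberg adjusted p under 0.05, against 8.63% of all 7937 transcripts tested. That is 24.5% of the members, and 1 member (0.5%) had a negative slope, against 6.00% of all tested. Members were picked for a low yolk median, and in these embryos the yolk-typical share was lower where the ratio was higher (rho -0.57). The slopes are therefore not fully independent of the rule.

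The members' slopes had a median of 0.25, with quartiles of 0.05 and 0.44, and 163 of 200 were above 0. The median over all transcripts tested was 0.06. Of the 1705 other transcripts within the level and flatness limits, 120 (7.04%) had a positive slope and 102 (5.98%) a negative one, with a median of 0.04. All 200 members passed the filter on low counts.

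FW_v1_tr_01739 had the steepest positive slope among the members. Its lowest, median and highest levels were 3.95, 116 and 248 CPM in stage 4, 32.4, 211 and 338 CPM in stage 5, and 0, 205 and 361 CPM in stage 6. The level thus varied widely between embryos of each stage, and the ranges of the 3 stages overlapped. The slope was 0.89 (SE 0.17, edgeR adjusted p = 0.000334).

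FW_v1_tr_00247 came next, with 7.47, 117 and 303 CPM in stage 4, 78.8, 141 and 731 CPM in stage 5, and 12.3, 155 and 647 CPM in stage 6. Its slope was 0.85 (SE 0.16, edgeR adjusted p = 0.000215). FW_v1_tr_08125 had the only negative slope past the threshold, at -0.94 (SE 0.25, edgeR adjusted p = 0.0076). It had 0, 54.9 and 140 CPM in stage 4, 0, 44.6 and 170 CPM in stage 5, and 2.81, 31.5 and 1019 CPM in stage 6, so a single stage 6 embryo stood far above the others.

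The calls and the members' median slope changed in models that take depth into account. The transcript total is also the numerator of the ratio, so adding it cannot fully separate depth from RNA content. With the transcript total added to the model, 4 members (2.00%) had a positive slope past the threshold, against 2.00% of all tested. The members' median slope was 0.15 with 125 above 0, against a median of 0.03 over all tested. An unadjusted p under 0.05 was found for 34 members (17.0%), against 16.8% of all tested. FW_v1_tr_01739 then had a slope of 0.97 (adjusted p = 0.0535) and FW_v1_tr_00247 of 0.64 (adjusted p = 0.228). Without the 7 libraries under 200000 counts, 34 members passed, against 9.01% of all tested. The median slope was again 0.15, against 0.03 over all tested, with 141 above 0, and 25 of the 49 were called again. FW_v1_tr_01739 had a slope of 0.986 there and FW_v1_tr_00247 of 0.997, both steeper than with all embryos.

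With the yolk-typical share added, the members' median slope was 0.22 with 154 above 0, against a median of 0.09 over all tested. Past the threshold were 7 members (3.5%), against 0.340% of all tested. Both named positive slopes passed there, FW_v1_tr_01739 at 0.91 (adjusted p = 0.0174) and FW_v1_tr_00247 at 0.81 (adjusted p = 0.0319). All 49 slopes stayed above 0 in these 3 models, but the 49 were picked for a positive slope in these same embryos. Their sign is thus no separate support. The negative slope of FW_v1_tr_08125 passed in none of these 3 models (edgeR adjusted p = 0.849 with the transcript total, 0.0562 without the 7 libraries and 0.0975 with the yolk-typical share). The parts of depth and yolk in the slopes were not tested further.

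**Figure D5:**
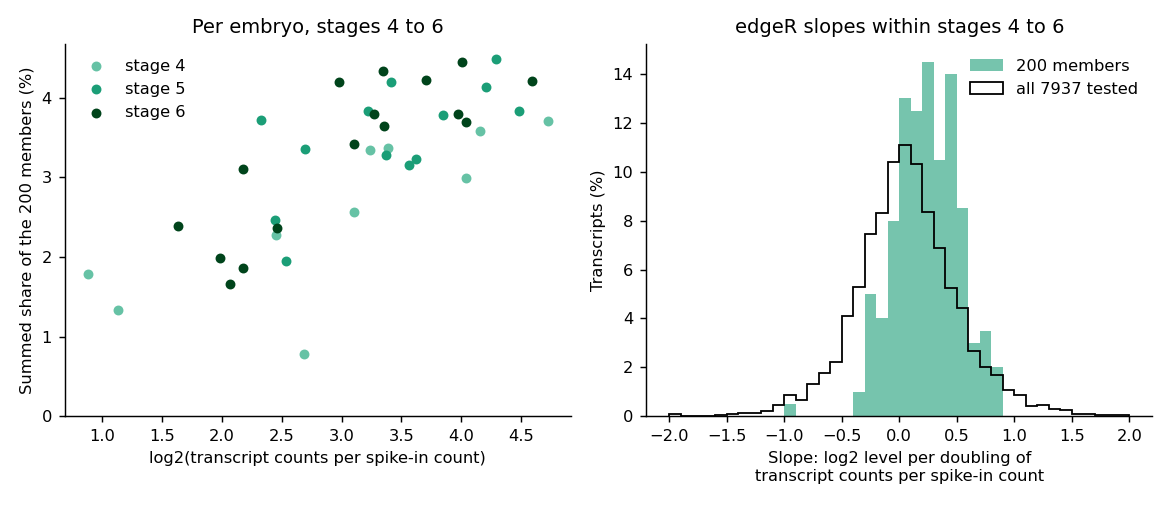
Left, summed share of the 200 members (%) against log2 of transcript counts per spike-in count for each of the 39 embryos of stages 4 to 6, coloured by stage. Right, distribution of the edgeR slopes of the 200 members (filled) and of all 7937 transcripts tested (line), with slopes beyond 2 in size drawn in the end bins; the members' median is 0.25 and that of all tested 0.06.

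In the 31 embryos of stages 7 and 8, no member had a slope past the threshold in either direction by edgeR's quasi-likelihood test, against 0.0675% of 8892 transcripts tested with a positive and 0.0112% with a negative slope. An unadjusted p under 0.05 was found for 38 members (19.0%), against 12.0% of all tested. DESeq2 called 3 positive slopes, against 1.08% of all tested, and none negative. The members' median slope was 0.15, against 0.08 over all tested. With RLE factors these medians were 0.08 and 0.01. With the transcript total added to the edgeR model, the members' median slope was -0.01, against 0.04 over all tested, and 95 of 200 were above 0. In that model an unadjusted p under 0.05 was found for 12 members (6.0%), against 7.00% of all tested. The lean towards positive slopes was thus not kept there. FW_v1_tr_01739 had a slope of -0.03 (SE 0.12) and FW_v1_tr_00247 of 0.22 (SE 0.18). Whether the slopes differ between stages 4 to 6 and stages 7 and 8 was not tested.

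The spike-ins give a second scale, on which the rule was not applied. Counts of members per 1000 spike-in counts had lowest, median and highest values of 29.1, 267 and 979 in stage 4, 113, 372 and 879 in stage 5, and 69.6, 349 and 1016 in stage 6, all in set C. In stages 7 and 8, nearly all in set D, they were 266, 999 and 1545 in stage 7 and 362, 1820 and 2825 in stage 8. Embryos of neighbouring stages overlapped in this measure, and values of different sets cannot be set against each other. The ratio over all transcripts moved too: its log2 had a median of 5.89 in stage 8 and 4.97 in stage 7.

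Between consecutive stages the rule itself held the medians within 3-fold, so the following counts describe the members and nothing is read from them. In stage 5 against stage 4, edgeR's quasi-likelihood test called no member higher or lower, and it called 0% of all 6300 transcripts tested, while an unadjusted p under 0.05 was found for 25 members (12.5%), against 13.8% of all tested. DESeq2 called 1 member higher, against 1.22% of all tested. In stage 6 against stage 5 it again called none, with 0% of 6279 tested, while 6 members (3.0%) passed an unadjusted threshold of 0.05, against 4.95% of all tested, and DESeq2 called none. The median log2 difference of the members was 0.22 in the first of these, or 0.13 without the 2 stage 4 libraries rich in protist-high transcripts, and -0.02 in the second.

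In stage 7 against stage 6, 12 members were called higher and 41 lower with TMM factors, against 26.3% and 24.0% of all transcripts tested. With RLE factors the counts turned to 33 higher and 19 lower, against 34.3% and 17.9% of all tested, and with DESeq2 to 35 and 24, against 37.0% and 19.5%, so no direction can be given to the members as a group. On the log2 scale the median difference over all tested transcripts was 0.06 with TMM and 0.33 with RLE factors, and that over the members was -0.18 with TMM and 0.09 with RLE factors. FW_v1_tr_12297 had lowest, median and highest levels of 207, 345 and 631 CPM in stage 7 and 0, 122 and 277 CPM in stage 6. FW_v1_tr_14206 had 38.5, 60.8 and 163 CPM in stage 7 and 37.4, 139 and 556 CPM in stage 6. The stages overlapped for both, and the change of spike-in set falls at this step.

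In stage 8 against stage 7, 2 members were called higher and 11 lower, against 4.46% and 1.68% of all 8892 transcripts tested. FW_v1_tr_09099 had lowest, median and highest levels of 87.2, 242 and 364 CPM in stage 8 and 54.6, 128 and 178 CPM in stage 7. FW_v1_tr_09460 had 0, 38.6 and 93.5 CPM in stage 8 and 36.1, 91.6 and 149 CPM in stage 7. The ranges of the 2 stages overlapped for both transcripts.

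Some members may not be separate measurements. For 19 members the counts over libraries differed from those of at least 1 other model by no more than sampling noise, taken as a chi-square per library under 1.2. Of these, 14 formed 6 groups among the members themselves, the largest of 4 models, and 5 of the 49 members with a positive slope had such a partner. How reads were divided between such models is not given in the sources used here, so their counts are uncertain singly.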

How the data were processed

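Raw counts, as whole numbers without normalization, were deposited by the authors for each transcript model and spike-in, together with 5 read counters. The tools named in the submitters' processing notes are HTSeq 0.5.4p3, Bowtie2 2.1.0 and CASAVA 1.8, and the build named is one of Drosophila and was not used. Over all libraries 63.6% of reads were not aligned and 2.56% fell in no feature. The deposited barcode list was not used.

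From the counts, 3 of 15124 models that follow the spike-ins were removed, CPM was computed, and the rule was applied. Slopes and stage comparisons were fitted over all transcripts with edgeR 4.0.16 in R 4.3.3 (TMM factors, filterByExpr, robust quasi-likelihood F test, Benjamini-Hochberg adjustment over all tested, threshold 0.05). Standard errors came from the log2 value and its F statistic. The scripts were tested on simulated data. DESeq2 1.42.0, RLE factors, no filter, further covariates and left-out libraries were tried. Spike-in sets came from Ward clustering of 26 spike-ins into 4. Python 3.11.15 with pandas 2.3.3, scipy 1.17.1 and matplotlib 3.10.9 was used.

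Members and lists were chosen with earlier results of these data known. At most 2 transcripts were named per item: those ranked first, highest in level, at the end of the list, flattest and least flat, least and most variable, detected in the most early libraries or highest in the protist library, and those with the largest rise and fall among the members called in a comparison. Replicate numbers only name samples, in accession order. The p-values measure the spread between single embryos, which may share a capsule.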

Additional observations from a re-analysis of the deposited data

Results flagged for a closer look

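The 14 groups of 4 to 10 libraries examined did not cover every named member. Of these groups, 2 had a library far from the rest, and chance flags about 1 in 20 such groups. Both concern FW_v1_tr_00242, the member ranked first. It measured 1.91 CPM in yolk replicate 4 and was at 0 in the other 3 yolk samples. It measured 5.82 CPM in stage 1 replicate 5 and was at 0 in the other 5 stage 1 embryos. Each of these values is a single count, 1 in yolk and 1 in stage 1. In a group examined, a single count among zeros stands far from the rest by this measure, so neither shows that the library differs. FW_v1_tr_08125 had the same pattern in yolk, with 1.91 CPM in replicate 4 and 0 in the rest, and was not marked.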

How the results depend on the processing

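No paired analysis was possible because each embryo was sampled at a single stage and no parent or capsule was given for it. The list itself depends on its settings: of the 200 members, 102 were also chosen with means in place of medians, 106 with a lowest median of at least 50 CPM and 113 with a highest median of at most 2 times the lowest. Leaving out each yolk sample in turn kept 185 to 190. Members with a positive slope in stages 4 to 6 numbered 49, and 4 with the transcript total and 7 with the yolk-typical share as a further covariate. The shares of all tested were 8.63%, 2.00% and 0.340%. Negative slopes numbered 1, and 2 with DESeq2, 2 without libraries under 200000 counts and 0 with the yolk-typical share. Over all transcripts tested they numbered 476 of 7937, and in the same order 725 of 7937, 730 of 8899 and 30 of 7937. FW_v1_tr_08125 was not among the 2 members called without libraries under 200000 counts. The yolk covariate and the 200000-count minimum were chosen after seeing the data. In stages 7 and 8, DESeq2 gave 3 positive slopes and no filter gave 2, against 0. Over all tested these were 96 of 8892 and 68 of 15092, against 6 of 8892. Stage 5 against stage 4 gave 1 higher member with DESeq2, against 1.22% of all tested. Stage 7 against stage 6 gave 35 higher and 24 lower with DESeq2 and 33 higher and 19 lower with RLE factors, against 12 and 41. The shares of all tested were 37.0% and 19.5% with DESeq2 and 34.3% and 17.9% with RLE factors, against 26.3% and 24.0%. Stage 8 against stage 7 gave 1 higher with no filter, against 2. Over all tested these were 398 of 15092, against 397 of 8892. The cause of these shifts was not tested. The other 53 alternatives to a count moved it by no more than 1.5 times. Counts under 200000 per library, in 7 libraries of stages 4 to 6 and 1 of stages 7 and 8, limit the members near 30 CPM most.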
